A study of Ambystoma mexicanum with 2 samples.

Results

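The miR-29 family was examined in small RNA sequencing of the regenerating tail of the Mexican axolotl. Its members were taken by name, as the known microRNAs whose family label in the deposited table is miR-29 followed by at most 1 letter. This gave 6 labels of 4563 in the series, namely miR-29, miR-29a, miR-29b, miR-29c, miR-29d and miR-29e, made up of 52 of the 9277 mirBase entries with reads. An entry is 1 mature microRNA of 1 species in mirBase, the database of microRNA sequences, and the 52 entries come from 33 species, none of them the axolotl. Tail tissue was compared between a blastema library, taken from the regenerating tail 3 days post injury, and a control library of uninjured tail that had never regenerated, with 1 library each. Mature axolotls were pooled, and the number of 20 animals is given without saying whether it holds for each library or for both together. The animals were anesthetized with p-amino benzocaine before amputation, and no strain or transgene is given for either group. The deposited counts sum to 9952885 reads in the blastema library and 12613931 reads in the control library. With no replicates there is no test of the condition, and each interval given covers counting error only, because PCR copies are not independent molecules and differences between animals cannot be seen in a pool.

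MicroRNAs are short RNAs that pair with messenger RNAs, mainly through bases 2 to 8 of the microRNA, called the seed, and lower the amount of protein made from them. The members of the miR-29 family share 1 seed, which lies in the 3p arm of their precursors, while the 5p arm is usually the less abundant strand. In mammals miR-29 is best known for repressing genes of the extracellular matrix, among them fibrillar and basement membrane collagens, elastin and fibrillin, and its level is low in many fibrotic tissues. Messenger RNAs were not measured in this series, so the text describes the microRNAs alone.

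The deposited table names the entries of known microRNAs without their sequences, so the mature miR-29 sequences are not shown. It does give the sequences of the reads that did not map to mirBase, and these were searched, as read, for the letters of the miR-29 seed, AGCACCA. Of 59811 unmapped sequences, 49 (0.0819%) hold these letters and 0 hold them at bases 2 to 8, where a seed would lie. Reads within 2 mismatches of a miR-29 entry had mapped and were thus not searched, so the 0 cannot show whether further miR-29 variants exist. The share that would hold the letters by chance was not computed. Capitals mark the searched letters in the sequence that has them nearest to its first base, and in the most read sequences that have them from base 10 and from base 11.
Starting at base 1: AGCACCAaaagaaataggtaa
Starting at base 10: gaaatgtttAGCACCActtga
Starting at base 11: accacagggtAGCACCAcggaca
The first had 0 blastema reads and 6 control reads and belongs to no family of the authors. The second had 22 blastema reads and 4 control reads, in the family amex-miR-pn37, for which the authors list a partial similarity to miR-203. The third had 10 blastema reads and 20 control reads, in the family amex-miR-pn783, with a listed similarity to miR-140. Of the 49 sequences, 34 hold the letters from base 11, and 14 are in a family with a listed similarity to miR-140. All blastema and control counts of the 49 sequences were even numbers, which the sources used here do not explain. Whether unmapped reads were counted more than once was not tested. Unmapped counts made up 20.6% of the blastema total and 9.38% of the control total. None of the 1588 unmapped families with a listed similarity names miR-29.

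The miR-29 family held a larger share of the blastema library than of the control library. Summed over the 52 entries it had 17848 reads in the blastema, or 1793 RPM (reads per 1000000 deposited reads, Wilson 95% interval 1767 to 1819.7), and 2694 reads in the control, or 214 RPM (205.7 to 222). The log2 ratio of the blastema share over the control share, computed with 0.5 read added to each count, was 3.07 (counting interval 3.01 to 3.13), which is 8.40-fold. When known microRNAs were grouped by their number alone, miR-29 ranked 32 in the blastema and 41 in the control among 3803 numbers. The libraries differed by more than counting error.

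Most known microRNAs had a larger share in the blastema, and the miR-29 values are read against this. Labels with a sum of 10 or more reads numbered 3090. In the blastema, 84.3% of them had at least a 2-fold and 60.3% at least a 4-fold larger share. All 6 miR-29 labels passed both limits, a number too small to set apart from these shares. The labels miR-29 (21 blastema and 0 control reads) and miR-29e (12 and 2) reached 10 reads only through the blastema, so that passing was nearly fixed for them. Over the 197 labels with at least 1000 reads the median log2 ratio was 2.08, and the summed miR-29 family lay 0.99 above it, higher than 74.1% of these labels. Grouped by number, 30 of 111 microRNAs with at least 1000 reads had a larger log2 ratio than miR-29. Another total for the libraries shifts every log2 ratio by the same amount, so the distance to the median stays as it is while the ratio itself changes. For miR-29 the log2 ratio was 0.93 with the TMM factors of edgeR, which place the median of the abundant labels at -0.06, and 1.68 with a total that omits the muscle microRNAs, where that median was 0.69.

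Muscle microRNAs took very different parts of the totals. The 16 labels of miR-499, miR-208, miR-206, miR-133 and miR-1 took up 14.3% of the blastema library and 67.4% of the control library. MicroRNAs that mark other cell types of the tail also differed between the libraries. The 5 listed epidermal labels (miR-203, miR-205 and miR-200a, miR-200b and miR-200c) summed to 1.53% of the blastema and 0.144% of the control reads, a log2 ratio of 3.41. The 4 leukocyte labels (miR-142, miR-223, miR-155 and miR-146a) summed to 0.224% and 0.0207%, a log2 ratio of 3.43. The log2 ratio of the sum was 2.69 for the erythroid labels, of which miR-486 is not among the labels with reads, 1.72 for the cartilage labels miR-140 and miR-455, and 1.28 for the 4 neural labels. These ratios depend on the library totals. Omitting the muscle microRNAs from the totals shifts every log2 ratio by -1.39, and TMM shifts it by -2.14. The summed cartilage and neural values lie below the median of 2.08 over the labels with at least 1000 reads, and the summed epidermal, leukocyte and erythroid values above it. Single labels can differ from their sum. The leukocyte label miR-146a, with 58 blastema and 32 control reads, lay below that median at 1.19, and the erythroid label miR-451 lay close to it at 2.11. In bulk tissue, more cells of a type and more of its RNA per cell cannot be told apart, and the part of the tissue makeup in the miR-29 difference was not tested.

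miR-29c held the most reads of the family. It had 9452 reads in the blastema, 949.7 RPM (interval 931 to 969), against 1416 reads in the control, 112 RPM (107 to 118). Its log2 ratio was 3.08 (3.00 to 3.16), and among single labels it ranked 69 in the blastema and 96 in the control. It also had more entries with at least 100 reads, 13 against 6 of miR-29a and 1 of miR-29b. The median blastema counts of these entries were 680, 733 and 630, so per entry miR-29c was not higher than miR-29a.

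miR-29a, whose entries with many reads are those of bony fishes and the king cobra, came next. It had 5073 blastema reads, 509.7 RPM (496 to 524), and 739 control reads, 58.6 RPM (54.5 to 63.0). The log2 ratio was 3.12 (3.01 to 3.23), with an interval that overlaps that of miR-29c.

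miR-29d, a label that rests mainly on 1 entry of the western clawed frog, had 2466 blastema reads and 398 control reads. These are 248 RPM (238 to 258) and 31.6 RPM (28.6 to 34.8), a log2 ratio of 2.97 (2.82 to 3.12). miR-29b had 824 blastema reads, 82.8 RPM (77.3 to 88.6), and 139 control reads, 11.02 RPM (9.33 to 13.0). Its log2 ratio of 2.91 (2.65 to 3.16) was the lowest of the 4 labels with more than 100 reads, but its interval overlaps those of the other 3.

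The last members were rare. miR-29e, from 1 cattle entry, had 12 blastema reads and 2 control reads, a log2 ratio of 2.66 with a wide interval of 0.70 to 4.62. The label miR-29 without a letter comes from 1 entry of the red flour beetle and had 21 blastema reads and 0 control reads. Its share was at least 8.87-fold higher in the blastema when 3 counts are put in place of the 0, a bound that leaves out the counting error of the 21 reads.

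**Figure D1:**
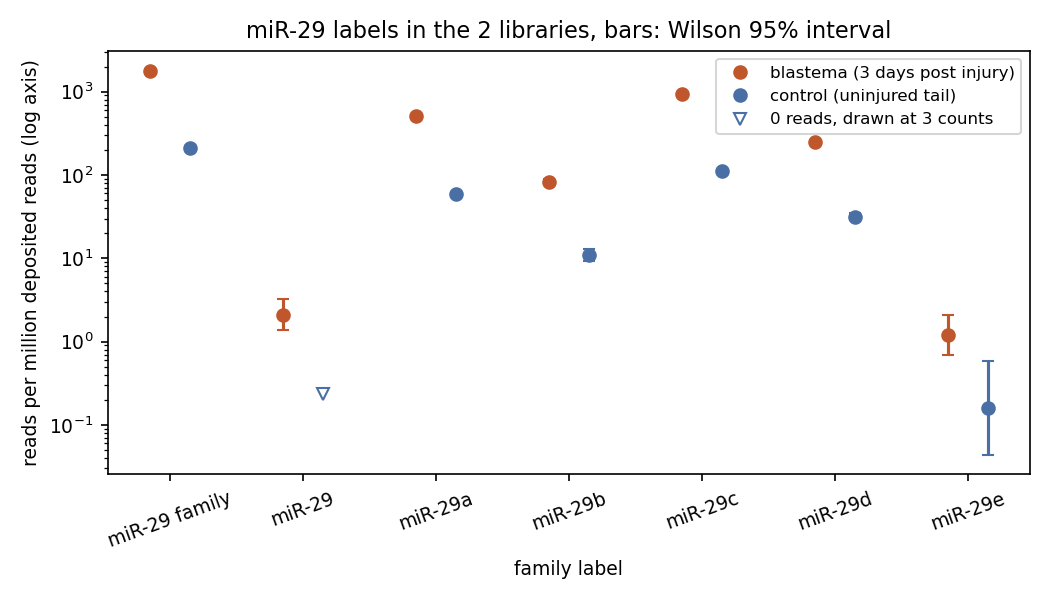
Reads per 1000000 deposited reads (RPM, log axis) of the summed miR-29 family and of each label, with the blastema library left of the control library and Wilson 95% intervals as bars. Each label is higher in the blastema, miR-29c is the highest single label in both libraries (949.7 and 112 RPM), and the open triangle is the control value of miR-29, which had 0 reads and is drawn at 3 counts.

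The makeup of the family by label was nearly the same in both libraries, a comparison that does not depend on the library totals. miR-29c made up 53.0% of the miR-29 reads in the blastema (52.2 to 53.7) and 52.6% in the control (50.7 to 54.4). miR-29a made up 28.4% (27.8 to 29.1) in the blastema and 27.4% (25.8 to 29.1) in the control. For miR-29d the shares were 13.8% (13.3 to 14.3) in the blastema and 14.8% (13.5 to 16.2) in the control, and for miR-29b they were 4.62% (4.32 to 4.93) and 5.16% (4.39 to 6.06). No shift between the labels was detectable at this depth. On the log2 scale the ratio of the odds, blastema over control, was 0.02 for miR-29c (-0.09 to 0.14), 0.07 for miR-29a (-0.06 to 0.20), -0.11 for miR-29d (-0.28 to 0.05) and -0.17 for miR-29b (-0.44 to 0.09), so that each interval includes 0. These shares also follow from which mirBase entries carry which label. If entries with different labels split the reads of the same axolotl microRNA, their shares would be alike in both libraries in any case. Like shares therefore cannot show whether separate miR-29 microRNAs of the axolotl kept their proportions, which was not tested.

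**Figure D2:**
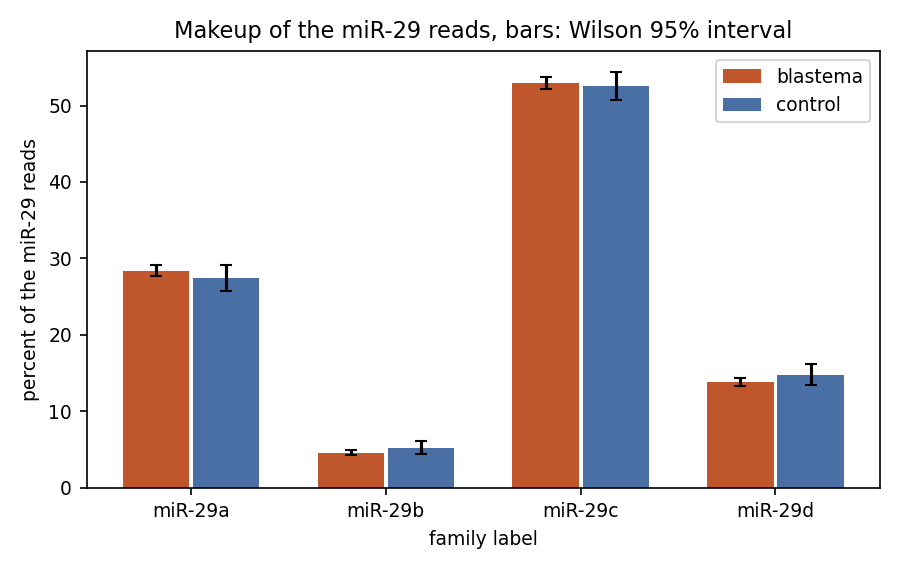
Percent of all miR-29 reads held by miR-29a, miR-29b, miR-29c and miR-29d, with the blastema library left of the control library and Wilson 95% intervals as bars. The pairs of bars have nearly the same height, with 53.0% and 52.6% for miR-29c as the largest pair. Labels that split the reads of the same microRNA would give pairs of like height in any case.

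Entries named for either arm of the precursor had reads. The 5 entries named 5p had 419 blastema reads, 42.1 RPM, and 61 control reads, 4.84 RPM, a log2 ratio of 3.11 (2.73 to 3.50). The 26 entries named 3p had 4371 and 654 reads, a log2 ratio of 3.08 (2.96 to 3.20), and the 21 entries with no named arm had 13058 and 1979 reads, a log2 ratio of 3.06 (3.00 to 3.13). The 5p entries were 2.35% of the miR-29 reads in the blastema (2.14 to 2.58) and 2.26% in the control (1.77 to 2.90), so that a difference between the arms was not detectable at this depth. Nearly all 5p reads came from 1 sea lamprey entry, pma-miR-29d-5p, with 376 blastema reads and 58 control reads. The 3p entry of that lamprey microRNA, pma-miR-29d-3p, had only 11 blastema reads and 16 control reads. Arms are known here from entry names alone, and the arm of an axolotl precursor that gave these reads was not tested. The other 5p entries, all of miR-29b, had 43 blastema reads and 3 control reads together.

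The reads of the family were spread over many entries. A sum of at least 100 reads was reached by 22 entries. They held 97.5% of the miR-29 reads of the blastema and 97.4% of those of the control, while the other 30 entries had at most 77 blastema reads and 16 control reads each. The entry with the most reads was xtr-miR-29d of the western clawed frog, 1 of the 2 amphibian entries, with 2065 blastema reads and 324 control reads and a log2 ratio of 3.01 (2.84 to 3.18). The other amphibian entry, xtr-miR-29a, had 7 blastema reads and 0 control reads.

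Besides xtr-miR-29d and the lamprey 5p entry, 20 entries had at least 100 reads, a set chosen after the values were seen. Their blastema counts ran from 602 to 1260 with a median of 687.5, and their control counts from 80 to 174 with a median of 106. They spread over 3 labels, with 13 entries of miR-29c, 6 of miR-29a and 1 of miR-29b. The highest were tni-miR-29a of Tetraodon, with 1260 blastema and 161 control reads, and aja-miR-29c of a fruit bat, with 1227 and 174. The other 18 lay between 602 and 858 blastema reads and between 80 and 146 control reads.

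Entries with the same letter differed widely in count, and entries with different letters had like counts. Among the entries of miR-29c were aja-miR-29c, efu-miR-29c of a big brown bat with 804 blastema and 146 control reads, and mmu-miR-29c-3p of the mouse with 723 and 109. Human hsa-miR-29c-3p had 680 blastema and 105 control reads. In the same range lay dre-miR-29a of the zebrafish, with 858 and 132, oha-miR-29a-3p of the king cobra, with 753 and 107, and the salmon entry ssa-miR-29b-3p, with 630 and 107. In contrast the miR-29a entries of 8 other land vertebrates, among them mouse, rat, chicken and the clawed frog, had 4 to 11 blastema reads and 0 to 3 control reads each. Mouse mmu-miR-29a-3p had 6 blastema reads and 1 control read. After the salmon entry, the miR-29b entries with the most reads were efu-miR-29b, with 77 blastema and 11 control reads, and pma-miR-29b of the lamprey, with 44 and 8.

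mirBase letters are given within each species, and the reads were mapped with up to 2 mismatches. The sources used here do not say where a read was counted if it matched more than 1 entry. Reads of 1 axolotl microRNA can thus be split between the labels miR-29a, miR-29b and miR-29c, and whether they were was not tested. The sum over the family does not depend on such a split within it.

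The entries with many reads had like log2 ratios. Their log2 ratios ran from 2.80 for efu-miR-29c to 3.33 for rno-miR-29c-3p of the rat, with a median of 3.05 and an SD of 0.14 over the 22 entries. The median counting error of a single one of these ratios was 0.15 (SE), so that the spread between entries was no larger than counting error. Entries that split the reads of 1 microRNA would give like ratios in any case, so they are not separate observations of the difference. In the 96 other labels with at least 5 entries of at least 100 reads, the SD between entries ran from 0.0888 to 1.257. Its median over these labels was 0.36. Each of these SDs is within 1 label, while the 22 miR-29 entries spread over 4 labels. For the 13 such entries of miR-29c alone the SD was 0.14, and the counting error in the other labels was not compared.

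Of all 52 entries, 51 had a larger share in the blastema than in the control. Of the 37 with at least 10 reads, 36 were at least 2-fold higher, against 79.3% of all 6854 known entries with that many reads. The exception was pma-miR-29d-3p of the lamprey, with 11 blastema reads and 16 control reads, whose log2 ratio of -0.18 has an interval (-1.27 to 0.91) that includes 0. That interval lies below the 3.07 of the summed family. The entry held 0.0616% of the miR-29 reads in the blastema and 0.594% in the control, whatever the library totals. Its log2 ratio was -2.32 with TMM, -1.57 without the muscle microRNAs in the total, -0.80 with the depth the paper states and 0.01 with known reads only. Entries may share the reads of 1 microRNA, so the 37 entries are not separate members to be set against the 79.3%. The limit of 10 reads is on the sum of both libraries, so entries with few control reads passed it through their blastema reads. For such entries, among them bta-miR-29d-3p with 14 and 0, a higher blastema share was nearly fixed by the limit. Of the 52 entries, 8 had no control read. Entries of lancelets, the acorn worm and the beetle, 4 in all, had 100 blastema reads and 3 control reads together. They include bbe-miR-29a-3p with 25 and 0, bfl-miR-29a-3p with 28 and 1, and sko-miR-29a with 26 and 2. Their counts are too low to rank against the other entries one by one. The cattle entry bta-miR-29d-3p had 14 blastema reads and 0 control reads, and pma-miR-29a-3p had 30 and 1.

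**Figure D3:**
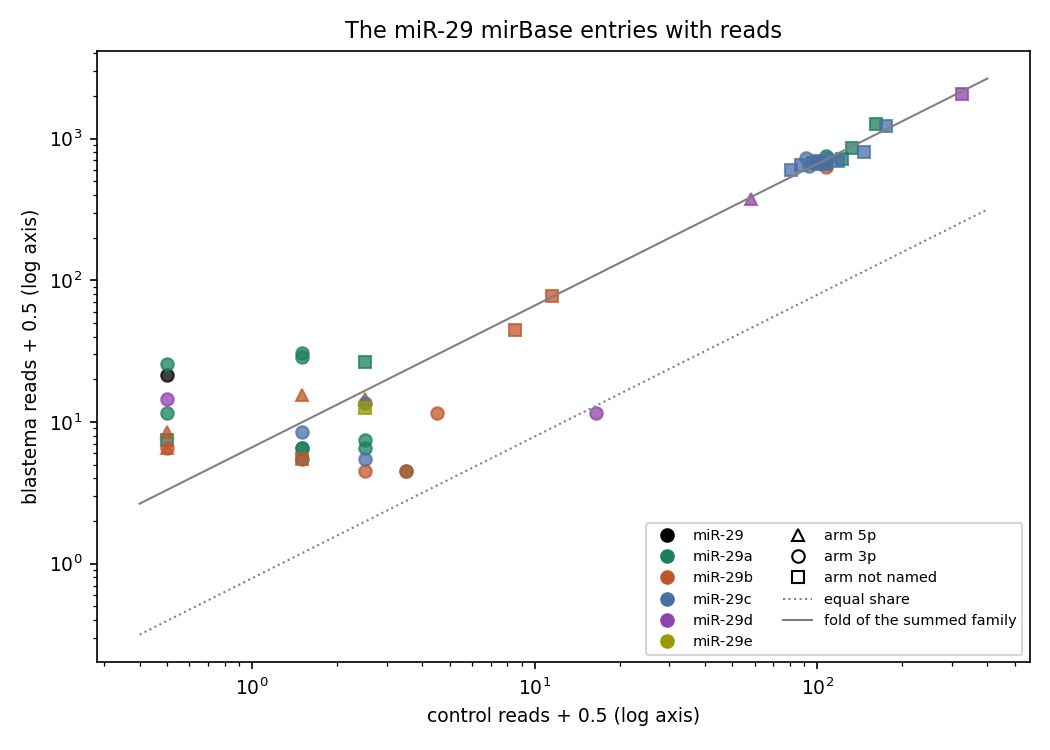
Blastema reads against control reads of the 52 miR-29 entries, each with 0.5 added, on log axes, with colors for labels and shapes for the named arm. The solid line is the 8.40-fold of the summed family and the dotted line an equal share, and the 22 entries with at least 100 reads lie close to the solid line whatever their label, while pma-miR-29d-3p, with 11 and 16 reads, lies close to the dotted line.

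The share of miR-29 was next compared with microRNAs known from fibroblasts, matrix production and fibrosis in mammals. Differences of log2 ratios are given for this, since they hold under any library total. miR-21, which is raised in many fibrotic tissues, had 549905 blastema and 30904 control reads, and the log2 ratio of miR-29 was lower by 1.43 (difference -1.43, interval -1.49 to -1.36). miR-155, an immune microRNA, had 1939 and 154 reads, and the miR-29 log2 ratio was 0.92 below it (difference -0.92, interval -1.17 to -0.68). The mesenchymal microRNAs miR-199a, miR-199b and miR-214 differed less between the libraries than miR-29, which exceeded them by 1.63, 1.63 and 1.80 on the log2 scale. miR-29 also exceeded miR-143 (by 0.997) and miR-145 (by 1.28), a pair best known from smooth muscle.

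Of the microRNAs listed here as limiting matrix production or the fibroblast state, most had a smaller log2 ratio than miR-29. The 5 labels of miR-30, which in mammals represses connective tissue growth factor, lay below it by 0.93 for miR-30b up to 1.73 for miR-30e. miR-26a and miR-26b lay below it by 1.16 and 1.74, and miR-192 by 2.90. The largest differences were to miR-133a and miR-133b, muscle microRNAs that also repress connective tissue growth factor in the mammalian heart. miR-133a had 1616 blastema and 8419 control reads and miR-133b 1367 and 3996, so that miR-29 exceeded them by 5.11 and 4.27 on the log2 scale. Only miR-200a and miR-200b, epithelial microRNAs that repress inducers of the mesenchymal state, had a larger log2 ratio than miR-29. The difference was -0.61 (-0.69 to -0.54) for miR-200a and -0.57 (-0.66 to -0.49) for miR-200b, while miR-200c, with 138 and 29 reads, could not be set apart from miR-29 (0.50, interval -0.08 to 1.07).

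By count, 7 of the 7 labels listed as raised or matrix-promoting in fibrosis had a share at least 2-fold larger in the blastema, with a median log2 ratio of 1.79. Of the 13 matrix-limiting labels 10 were likewise higher, and 2, miR-133a and miR-133b, were lower by 2-fold or more, with a median of 1.86. Over all labels with at least 10 reads, 84.3% were higher and 1.84% lower by this limit, so that the numbers of higher labels in both lists lie near the share over all labels. The median over the 3090 labels with at least 10 reads was 2.26. These directions depend on the library total, and with TMM 5 of the 7 and 9 of the 13 log2 ratios were below 0. With TMM the median over the labels with at least 1000 reads was -0.06, so values below 0 are common at this total. The share of all labels below 0 was not counted. The log2 ratios of miR-29a, miR-29b, miR-29c and miR-29d stayed above 0 under each of the 4 other totals. These labels lie above the median at any total and may share reads.

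**Figure D4:**
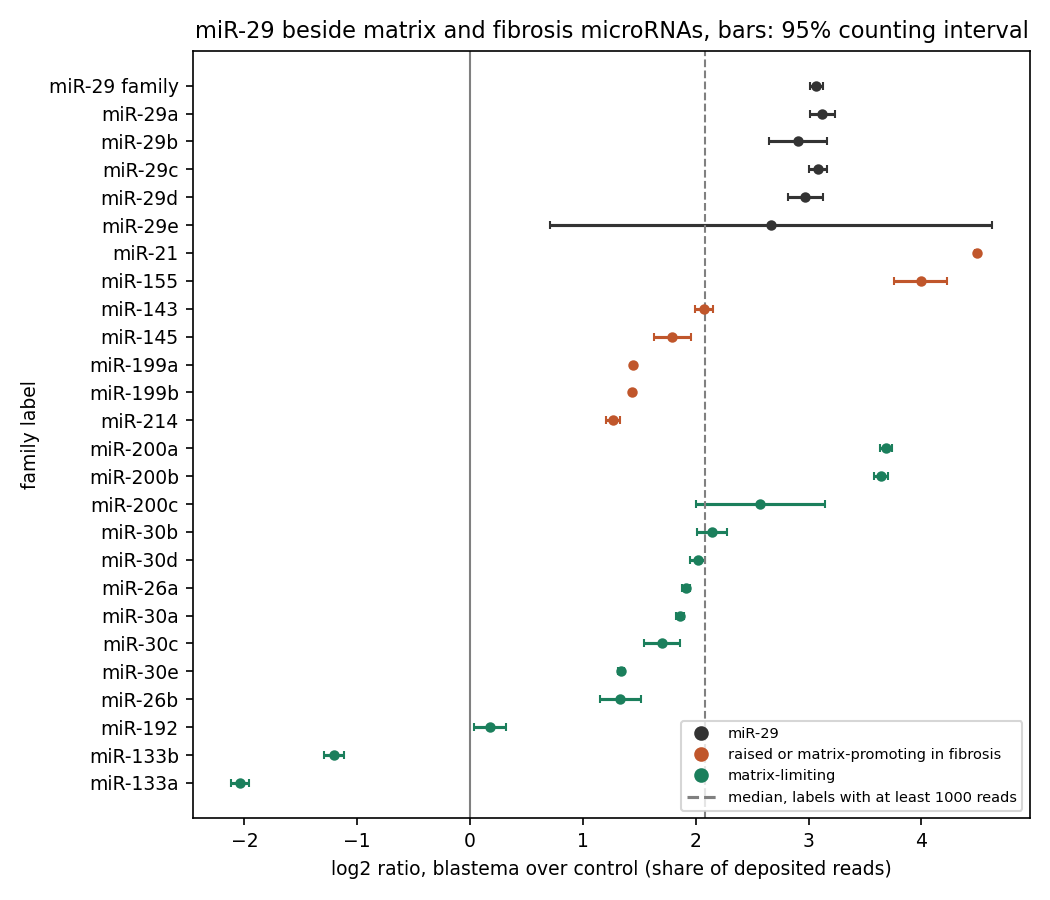
Log2 ratio of the share of deposited reads, blastema over control, of the miR-29 family and its labels with reads in both libraries (black). Also shown are the microRNAs listed as raised or matrix-promoting in fibrosis (orange) and as matrix-limiting (green), with 95% counting intervals as bars. The miR-29 labels stand right of the dashed median of abundant labels (2.08), and of the listed microRNAs miR-21, miR-155, miR-200a and miR-200b lie further right than the family.

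Among all other labels with at least 1000 reads, those with the log2 ratio nearest to the miR-29 family (3.07) over these 2 libraries were miR-130a (3.07), miR-142 (3.08), miR-15a (3.09), miR-181e (3.04) and miR-196a (3.11). miR-130a had 38105 blastema and 5753 control reads. miR-142, a microRNA of blood cells, had 12707 and 1899. miR-15a, known for repressing cell cycle genes, had 8826 and 1316, and miR-196a, encoded in the Hox clusters, had 3720 and 544. A likeness over 2 libraries is a single ratio, which many microRNAs can share.

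In flies and nematodes the miR-29 seed is known from microRNAs of other names. Of these, miR-83 and miR-49 are not among the labels with reads, miR-995 had 8 blastema and 6 control reads, and miR-998 had 68 and 16. miR-285 had 3701 blastema reads, 372 RPM, and 653 control reads, 51.8 RPM, from 1 entry each of 2 Drosophila species. Its log2 ratio of 2.84 (2.72 to 2.96) was 0.23 below that of the miR-29 family (interval of the difference 0.09 to 0.36). Both of its entries are named 5p, however, as are the only entry of miR-995 and 2 of the 3 entries of miR-998. In flies the seed lies in the 3p arm, so these 5p entries are named for the strand without the miR-29 seed. Which strand of an axolotl precursor gave their reads was not tested.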

How the data were processed

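Small RNA was sequenced on the Illumina Genome Analyzer from 1 blastema and 1 control library. The authors trimmed the reads with ShortRead, mapped them to mirBase with Bowtie 1.1.2 (the version is from the submitters' processing notes) allowing 2 mismatches, and deposited the counts of each entry and each unmapped sequence without normalization. The authors also clustered unmapped sequences (Levenshtein distance 4), and for each cluster, called a family, summed reads were deposited as counts. The deposited table also holds normalized values (a signal made by a method not named in the sources used here), their log2 and the authors' own log2 fold changes, none of which was used.

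Counts were summed per label, arm and entry. Shares are of all deposited counts, with Wilson 95% intervals, and log2 ratios (0.5 read added) have intervals from the Poisson error of both counts. A count of 0 allows up to 0.301 RPM (reads per 1000000 deposited reads) in the blastema and 0.238 in the control, at 3 counts. With single libraries no p-value was computed. Named are the miR-29 labels, the 3 entries with the most reads per label, listed fibrosis, seed and cell type microRNAs and the 5 labels nearest in log2 ratio. Other entries were named after their values were seen. Members and lists were chosen with earlier results of these data known. Alternatives were 4 other library totals, 5 reads added, other minimums of reads and folds, and subsets of entries. The interval calculation was tested on counts simulated with Poisson error alone, the error it assumes, so that test does not cover PCR copies or differences between animals. Software was edgeR 4.0.16 (TMM only) in R 4.3.3, and SciPy 1.17.1, NumPy 2.4.6, pandas 2.3.3 and Matplotlib 3.10.9 in Python 3.11.15.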

Additional observations from a re-analysis of the deposited data

How the results depend on the processing

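The log2 ratio of the miR-29 family stayed above 0 under each alternative. It was 2.45 with the depth the paper states, 3.26 with known reads only, 0.93 with TMM and 1.68 with a total that omits the muscle microRNAs. With 5 reads added, with the entry with the most reads alone, with entries of at least 100 reads and without 5p entries it moved by less than its counting interval. None of the 131 values of miR-29 results under alternatives changed a direction that its interval had set, and 67 of them moved past the counting interval. These values are not separate checks, since labels, arms and entries share reads and each of the 4 other totals shifts all ratios alike. For pma-miR-29d-3p, whose interval includes 0, the log2 ratio was -0.18, and 0.01 with known reads only. Without xtr-miR-29d, the share of the miR-29 reads was 32.1% in the blastema and 31.2% in the control for miR-29a, 5.22% in the blastema for miR-29b, 59.9% and 59.7% for miR-29c and 2.54% and 3.12% for miR-29d. With entries of at least 100 reads it was 3.62% and 4.08% for miR-29b and 54.1% in the blastema for miR-29c.

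Among the 23 comparison microRNAs 17 values changed a direction that their interval had set. With TMM the log2 ratio was -0.70 for miR-199a, -0.70 for miR-199b, -0.87 for miR-214, -0.0679 for miR-143, -0.35 for miR-145, -0.28 for miR-30a, -0.44 for miR-30c, -0.12 for miR-30d, -0.80 for miR-30e, -0.23 for miR-26a, -0.81 for miR-26b and -1.97 for miR-192. Without the muscle microRNAs in the total it was -0.13 for miR-214, -0.0568 for miR-30e, -0.0633 for miR-26b and -1.22 for miR-192, and with the stated depth -0.45 for miR-192. The 17 leave out miR-995, whose interval includes 0. Its log2 ratio was 0.73, and -1.41 with TMM and -0.67 without the muscle microRNAs in the total. By construction a new total shifts all ratios alike.

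The number of known labels at least 2-fold higher in the blastema, 2605 of 3090, was 444 with at least 100 reads, 834 with TMM and 1442 without the muscle microRNAs. The number at least 2-fold lower, 57, was 17 at 4-fold, 103 when no minimum was set, 18 with at least 100 reads, 33 with 5 reads added, 90 with the stated depth, 559 with TMM and 236 without the muscle microRNAs. Counts with another minimum of reads are over another number of labels, so they cannot be set directly against those over 3090.

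No unmapped family lists a similarity to miR-29, so the alternatives for such families gave no value. No paired analysis was possible because each condition has 1 library. Entries with fewer than 10 reads are too shallow to be compared one by one.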
